A study of Oryza sativa with 32 samples.

Results

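AGR3/8 is a transgenic line of rice (Oryza sativa cv. Nipponbare) that carries OsANT1:HvAlaAT, a barley alanine aminotransferase behind the promoter of a rice gene that the labels call root-specific, and its roots were compared here with wild type Nipponbare roots. The comparison took the 4 arrays titled for AGR3/8 root and the 4 titled for wild type root, 8 of the 32 arrays of the series. The other root arrays, 4 each of the lines AGR1/7 and AGR1/8 with the same construct, shared the fit and added to its estimate of the spread. The 8 shoot arrays of AGR3/8 and wild type served to compare tissues. All plants of all groups grew in hydroponics with 5 mM ammonium as nitrogen source, at 28 °C, 70% relative humidity, a 14 h day and a 10 h night and 750 µE of light, and were sampled at maximum tillering at mid-day. The labels name biological replicates, without saying how many plants made up each, and AGR3/8 is a single line, so an effect of where its transgene inserted and an effect of the transgene cannot be told apart in its arrays.

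Alanine aminotransferase moves an amino group between glutamate and pyruvate, giving alanine and 2-oxoglutarate, and so links ammonium assimilation to carbon metabolism. In roots fed ammonium, glutamine synthetase and glutamate synthase carry the ammonium into glutamine and glutamate, and 2-oxoglutarate is the carbon skeleton they use. The title of the study calls the lines nitrogen-efficient, and the comparison asks which transcripts differ in the root of one of them.

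Each array gave 1 intensity per probe set, on a linear scale, and differences below are differences of mean log2(intensity + 16) with their standard error (SE) from the fit. A probe set was called when limma's adjusted p was under 0.05 over the 38129 probe sets tested. No probe set was annotated to the barley gene. Of 64 reporter probe sets, which stayed out of the fit, 1 exceeded an intensity of 100 in every AGR3/8 root array. Its 4 AGR3/8 values were 5504.5, 6044.7, 6189.9 and 6238.0, against 0.5 to 18.9 in wild type roots, and the other 2 lines gave 4868.7 to 6524.4. That probe set thus separated transgenic from wild type roots as labelled. It did not separate AGR3/8 from AGR1/7, which read 5671.0 to 6524.4.

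Wild type replicate 1 stood apart from its group, with a mean correlation of 0.937 to the other wild type roots, where the other 3 had 0.962 to 0.969 and the AGR3/8 roots 0.983 to 0.984. Results are therefore also given without it. Array medians were close, from 15.1 to 17.4. The 3′ to 5′ ratio of the GAPDH control probe sets, a sign of RNA quality, ran from 4.84 to 18.3 in wild type and from 2.54 to 4.68 in AGR3/8, so the groups did not overlap. The actin ratio overlapped, at 4.99 to 5.58 and 4.41 to 5.54. The part of RNA quality in the results below was not tested. Markers of green shoot tissue were low in both groups: their 17 probe sets summed to 702 to 1007 in wild type root and 722 to 1645 in AGR3/8 root, against 73060 to 86250 in wild type shoot, and 0 of the 15 tested were called. Root markers summed to 16380 to 26670 in wild type root and 23290 to 25500 in AGR3/8 root, with the brightest, transporter genes such as Lsi1 and LSI2, making up most of the sum. Of their 15 probe sets 1 was called, the silicon channel gene Lsi1 (0.30, adjusted p = 0.038, called in 3 of the 8 fits that left out an array). The others went both ways without passing: all 3 probe sets of CASP1, a Casparian strip gene of the endodermis, were at -0.88 to -1.33, NAS1 at -1.81, NAS2 at -2.27 and IRT1 at -0.84, and NRAMP5 was at 0.54 and LSI2 at 0.33. In bulk root RNA, fewer cells of a type and less RNA per cell cannot be told apart.

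AGR3/8 roots differed from wild type roots at 2064 of 38129 probe sets, or 5.41%, with 1222 higher (3.2%) and 842 lower (2.21%). Most differences were small, and the median size among the called was 0.66 log2. Between 1 and 2 log2, 245 called probe sets were lower and 101 higher, while beyond 2 log2 7 were lower and 19 higher. With each array centred on its median the split turned, to 865 higher and 942 lower. Without wild type replicate 1 the count was 1241 (3.25%), with 687 higher (1.8%) and 554 lower (1.45%). Of the 2064 calls, 1054 remained, which is 51.1% of the first set and 84.9% of the second. Leaving out any of the AGR3/8 arrays also lowered the count, to 428 without replicate 3, 573 without replicate 2, 729 without replicate 4 and 1054 without replicate 1. It was 967 without wild type replicate 3 and 3545 without wild type replicate 2. In all, 377 probe sets (0.989%), 242 higher and 135 lower, were called in the full fit and in each of the 8 fits that left out an array. All of these fits kept the AGR1/7 and AGR1/8 arrays. With only the 8 arrays of both groups, 634 probe sets were called.

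**Figure D1:**
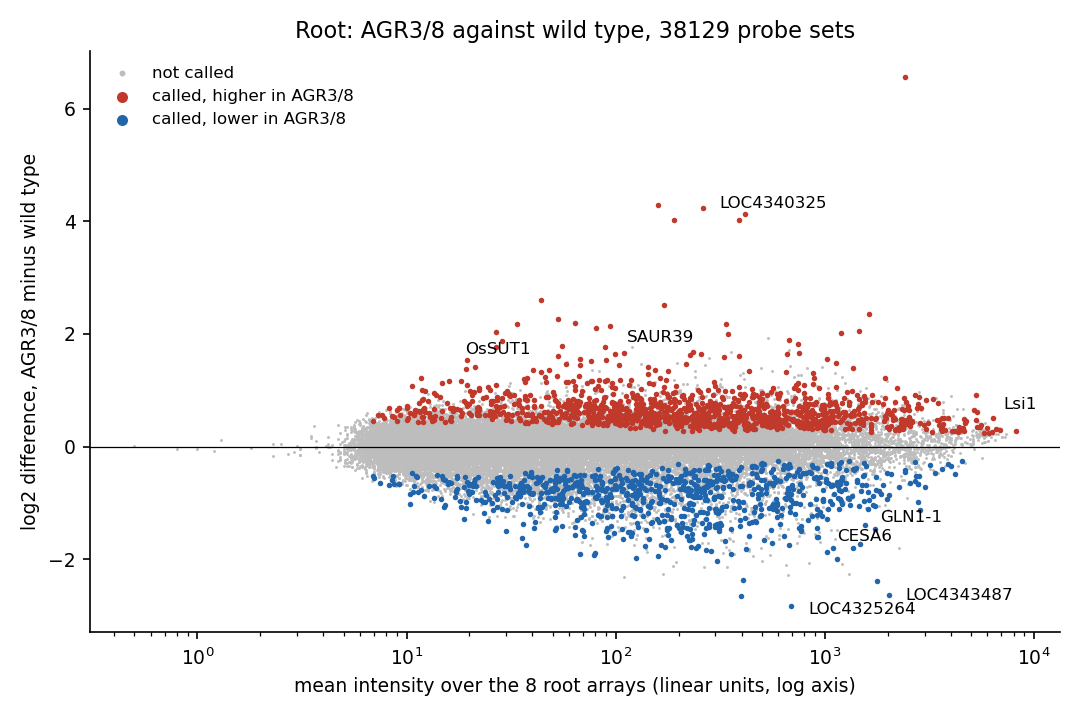
Mean intensity over the 8 root arrays (log axis) against the log2 difference between AGR3/8 and wild type root for each of the 38129 probe sets tested, with called probe sets in red (1222 higher) and blue (842 lower) and the others in grey. The highest single point, at 6.56, belongs to an unannotated probe set, and the lower side holds more points beyond 1 log2.

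The largest differences were at probe sets almost silent in wild type. The probe set OsAffx.22999.1.S1_at, matched to no gene, read 27.8, 45, 40.1 and 29.2 in wild type roots and 4690, 4739, 4806 and 4938 in AGR3/8 roots. The groups lay far apart and the difference was 6.56 log2 (SE 0.11, limma adjusted p = 1.01e-15). AGR1/7 and AGR1/8 roots were also high, at 4025 to 5100 and 3974 to 4633, and AGR3/8 did not pass the test against them (0.12, adjusted p = 0.67). In AGR3/8 shoot it read 79.0 to 244.9, and the root difference exceeded that in shoot by 3.49 log2 (adjusted p = 2.47e-06).

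LOC4340325, on chromosome 6, read 10.8, 7.5, 13.7 and 15.5 in wild type and 452, 523, 524 and 542 in AGR3/8 roots, with no overlap (4.24, SE 0.12, adjusted p = 1.99e-12). It read 9.6 to 18.1 in AGR1/7 and 250.3 to 292.7 in AGR1/8, so AGR3/8 was the highest of the lines. A second probe set of this gene differed by 0.14 and was not called (adjusted p = 0.65), so the 2 disagree. LOC4331398, on chromosome 3, had 2 probe sets, both called, and the first read 6.2 to 12.7 in wild type and 117, 1393, 1498 and 80.1 in AGR3/8. Replicates 2 and 3 of AGR3/8 were thus far above replicates 1 and 4, although all 4 lay above wild type (4.02, SE 0.66, adjusted p = 0.0052). In the other lines it read 1802 to 2717. Wild type values of these probe sets lie near background, where the added constant compresses the difference.

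Among genes with a descriptive symbol, OsSUT1, a sucrose transporter, rose from 19.2, 13.1, 27.9 and 17.7 in wild type to 49.7, 94.0, 99.8 and 61.5 in AGR3/8 (1.36, SE 0.20, adjusted p = 0.0026), with no overlap between the groups. SAUR39, a small auxin-responsive gene, rose from 54.2, 64.3, 72.7 and 95.8 to 212, 203, 216 and 221 (1.40, SE 0.16, adjusted p = 0.00022). COPT2, a copper transporter gene, rose from a range of 39.3 to 137.8 in wild type to 187.7 to 220.3 in AGR3/8 (1.29, SE 0.24, adjusted p = 0.010). BBD1 rose by 1.58 (SE 0.25, adjusted p = 0.0040). Its lowest AGR3/8 array, at 386.7, lay above its highest wild type array, at 231.2. All of these calls held in each of the 8 fits that left out an array.

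Among the largest falls were those of genes known here only by their LOC identifier and of a probe set named peroxidase. LOC4343487, on chromosome 7, fell from 2361, 2362, 5536 and 3720.0 in wild type roots to 731, 366, 343 and 734 in AGR3/8 roots (-2.64, SE 0.39, adjusted p = 0.0026). LOC4325938, on chromosome 1, fell from 1235, 2366, 5088 and 3433 to 662, 389.8, 374 and 629 (-2.39, SE 0.43, adjusted p = 0.0078). Neither gene's groups overlapped, and both calls held in each of the 8 fits. LOC4325264 fell from a range of 767.4 to 2178.8 in wild type to 83.3 to 229.4 in AGR3/8 (-2.83, SE 0.62, adjusted p = 0.019), with the call lost without AGR3/8 replicate 2 (0.063) or replicate 3 (0.069). The peroxidase probe set fell by 2.65 (adjusted p = 0.043), from a range of 152.1 to 1574.3 in wild type to 56.8 to 80.7 in AGR3/8, and held its call in 2 of the 8 fits.

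Few nitrogen genes were called, as over all probe sets, where 3.2% were higher and 2.21% lower. All list members carry a gene symbol, and of the 2897 such probe sets tested 4.1% were higher and 4.6% lower. Of 15 tested probe sets for ammonium assimilation, 1 was lower (6.67%) and 0 higher. Of 16 for ammonium, nitrate and urea transport 0 were called. Lists this short hold few calls at those shares. The medians were -0.22 and 0.00 against 0.05 over all probe sets. The first median was -0.01 without wild type replicate 1. The exception was GLN1-1, on chromosome 2, which encodes a cytosolic glutamine synthetase. It read 2475, 1689.9, 2125 and 1911 in wild type and 1053, 1055, 1048 and 949.9 in AGR3/8. All AGR3/8 arrays lay below all wild type arrays, and the difference of -0.97 log2 (SE 0.16, adjusted p = 0.0057) held in each of the 8 fits, with -0.88 (adjusted p = 0.013) without wild type replicate 1. The other glutamine synthetase genes were not called: GLN1-2 differed by 0.28, GLN1-3 by -0.22 and plastid GLN2 by -0.31. The ammonium transporter gene AMT1-2 read 379.5, 2912.5, 1230.4 and 2422.9 in wild type and 2656.3 to 2926.9 in AGR3/8. Its difference of 1.02 was not called (adjusted p = 0.25), and was 0.42 without wild type replicate 1. AMT1 differed by 0.35 (adjusted p = 0.49). The 9 tested probe sets for glutamate synthases and dehydrogenases gave 0 calls. They ran from -1.06 for a GDH2 probe set to 0.91 for GLT2.

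In carbon metabolism, 3 of 55 sugar transport and metabolism probe sets were higher (5.46%) and 5 lower (9.09%), against 3.2% and 2.21% over all probe sets. Over those with a gene symbol the shares were 4.1% and 4.6%. The list's counts were 1 and 0 without AGR3/8 replicate 2 or 3, and 1 and 1 without AGR3/8 replicate 4 or wild type replicate 3. They were 1 and 2 without AGR3/8 replicate 1, and 2 and 2 without wild type replicate 4. Beside OsSUT1, the sucrose synthase gene OsSUS2 was called higher by 0.26 (adjusted p = 0.0498), a call that held in 1 of 8 fits. OsTPP2, a trehalose-6-phosphate phosphatase gene, fell from a range of 260.4 to 586.3 in wild type to 161.1 to 239.6 in AGR3/8 (-0.90, SE 0.19, adjusted p = 0.017), and lost its call without AGR3/8 replicate 2 (0.062) or 3 (0.063). Of 23 glycolysis and fermentation probe sets 1 was higher and 1 lower (4.35% each), with a median of 0.22 and 5 differences below 0. Of 18 for the tricarboxylic acid cycle and respiration 0 were higher and 1 lower (5.56%), with a median of -0.006. OsPK2, for a pyruvate kinase, read 664, 521, 690.2 and 611 in wild type and 445, 384, 388 and 403 in AGR3/8 (-0.59, SE 0.09, adjusted p = 0.0044). SCS-beta, for a subunit of succinyl-CoA ligase in the tricarboxylic acid cycle, read 961.9 to 1567.5 and 739.7 to 851.4 (-0.65, SE 0.13, adjusted p = 0.014). Both held in each of the 8 fits, and neither gene's groups overlapped. The aldolase gene AldC-1 had 1 of 3 probe sets called, higher by 0.46 (adjusted p = 0.026), and called in 4 of the 8 fits, not without wild type replicate 1 (0.060) or 3 (0.063) or AGR3/8 replicate 2 (0.085) or 3 (0.078).

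The calls among genes for cellulose and xylan were all lower. Cellulose synthases make the cellulose microfibrils at the plasma membrane, and family 43 glycosyltransferases extend xylan. Over all probe sets 2.21% were lower, and over those with a gene symbol 4.6%. Of 51 tested probe sets for cellulose and xylan, 14 were called lower (27.5%) and 0 higher, with a median of -0.65. Without wild type replicate 1 the numbers were 6 lower, 0 higher and a median of -0.47. The count ran from 1 without AGR3/8 replicate 2 or replicate 3 to 17 without wild type replicate 2, while the median stayed between -0.76 and -0.47. Among 13 cellulose synthase probe sets of 9 genes, 7 were called lower and 0 higher. In 12 all AGR3/8 arrays lay below all wild type arrays. That held for 6.89% of all probe sets and 367 of the 2897 with a gene symbol. The number called was 0 without AGR3/8 replicate 2 or 3, 2 without AGR3/8 replicate 4 and 3 without wild type replicate 1, and the median, -0.95, stayed between -1.08 and -0.80. CESA1 read 764, 279, 423 and 363 in wild type and 172, 143, 129.7 and 176 in AGR3/8 at its first probe set (-1.38, SE 0.29, adjusted p = 0.016), and its second was also called (-1.04). The first lost its call without AGR3/8 replicate 2 (0.050) or 3 (0.057), and the second without AGR3/8 replicate 2, 3 or 4 or wild type replicate 1 (0.058 to 0.075). Wild type replicate 1 was the highest array for CESA1, CESA4 and CESA6. CESA4, a secondary-wall member, fell by 1.28 (adjusted p = 0.044) and CESA6, a primary-wall member, by 1.17 (adjusted p = 0.030). Without wild type replicate 1 these 2 were at -0.91 (adjusted p = 0.10) and -0.86 (adjusted p = 0.056), no longer called. GT43A, a family 43 glycosyltransferase gene, fell from 360.4, 216.1, 400.2 and 284.0 to 122.0, 82.8, 82.6 and 103.0 (-1.52, SE 0.28, adjusted p = 0.0089). It was called in each of the 8 fits.

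Phenylpropanoid genes make lignin monomers and the hydroxycinnamates bound to grass walls. Of 46 tested probe sets 9 were lower (19.6%) and 1 higher (2.17%), against 2.21% and 3.2% over all probe sets. Over those with a gene symbol the shares were 4.6% and 4.1%. The list's median was -0.26, and without wild type replicate 1 there were 7 lower and 0 higher. The number lower was 4 without AGR3/8 replicate 2 or replicate 3 and 5 without AGR3/8 replicate 1 or 4 or wild type replicate 3. 4CL-3, a 4-coumarate:CoA ligase gene, read 936, 695, 959 and 851 in wild type and 378, 408.0, 444 and 352 in AGR3/8. It fell by 1.08 (SE 0.10, adjusted p = 3.4e-05), with no overlap. AT7, of the BAHD acyltransferase family, fell from a range of 257.9 to 931.6 in wild type to 81.5 to 125.7 in AGR3/8 (-1.85, SE 0.33, adjusted p = 0.0078), and the laccase gene LAC3 from a range of 590.5 to 876.4 in wild type to 242.7 to 402.8 in AGR3/8 (-1.11, SE 0.21, adjusted p = 0.011). DAHPS1, for the first enzyme of the shikimate pathway that supplies phenylalanine, read 1404.4, 1403.6, 2143 and 1561 in wild type and 818, 769, 793 and 734 in AGR3/8 (-1.03, SE 0.21, adjusted p = 0.015). DAHPS2 fell by 0.52 (adjusted p = 0.0071) at 1 of its 2 probe sets. These 5 calls held in each of the 8 fits, while 4CL5 (-1.17, adjusted p = 0.044) held in 3. LAC15 was the single member higher (0.84, adjusted p = 0.033, called in 3 of the 8 fits). Expansins and wall-loosening enzymes gave 6 lower (8.45%) and 0 higher of 71, against 2.21% lower over all probe sets and 4.6% with a symbol. The number lower was 0 without AGR3/8 replicate 2 or 3, 1 without AGR3/8 replicate 1 or 4, 2 without wild type replicate 1 or 3, 3 without wild type replicate 4 and 10 without wild type replicate 2.

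**Figure D2:**
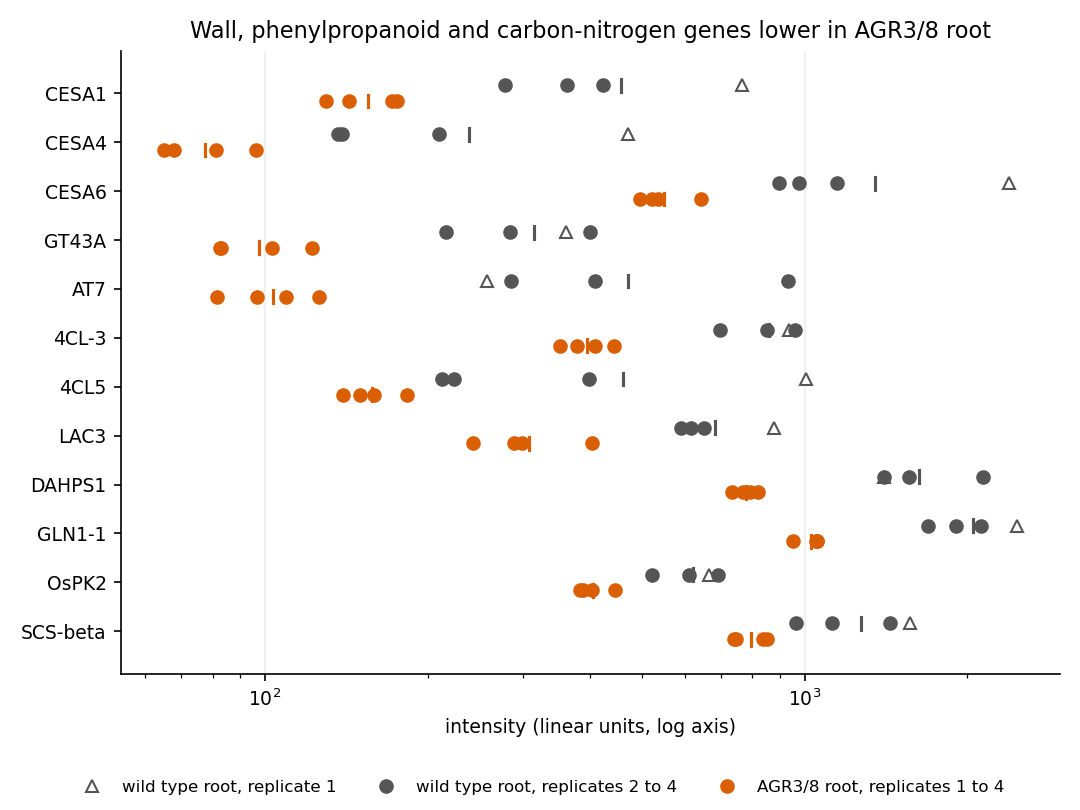
Intensity (log axis) in each wild type (grey) and AGR3/8 (orange) root array for 12 genes of the wall, phenylpropanoid, carbon and nitrogen lists called lower, at the called probe set with the smallest adjusted p, with the arithmetic mean of each group as a short bar. Every AGR3/8 array lies below every wild type array, and wild type replicate 1 (open triangle) is the highest wild type array for the 3 CESA genes, 4CL5, LAC3, GLN1-1 and SCS-beta.

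Most calls among jasmonate genes were lower as well. JAZ proteins repress jasmonate-responsive transcription and are themselves induced by the hormone, COI1 proteins are its receptors, and lipoxygenases start its synthesis. Of 52 tested jasmonate and ethylene probe sets, 10 were lower (19.2%) and 2 higher (3.85%), against 2.21% and 3.2% over all probe sets. Over those with a gene symbol the shares were 4.6% and 4.1%. The list's median was -0.45, and without wild type replicate 1 there were 9 lower and 1 higher. The number lower fell to 1 without AGR3/8 replicate 2 or replicate 3, to 3 without wild type replicate 3 and to 4 without AGR3/8 replicate 1 or replicate 4. Of 15 JAZ probe sets of 13 genes, 8 were lower (53.3%) and 1 higher (6.67%), with a median of -1.04. Without wild type replicate 1 they gave 4 lower and 0 higher, with a median of -0.70. The number lower was 1 without AGR3/8 replicate 2 or 3, 2 without wild type replicate 3 and 3 without AGR3/8 replicate 1 or 4. JAZ8 read 330.1, 97, 351 and 133 in wild type and 55.3, 29.2, 44.6 and 67.3 in AGR3/8, with no overlap (-1.76, SE 0.32, adjusted p = 0.0089), and was called in each of the 8 fits. JAZ11 fell from a range of 446.5 to 1844.3 in wild type to 222.6 to 330.4 in AGR3/8 (-1.59, SE 0.33, adjusted p = 0.016), and without wild type replicate 1 by 1.22 (adjusted p = 0.025), with the call lost without AGR3/8 replicate 2 (0.056) or 3 (0.057). JAZ10 read 2017, 222, 419 and 209 in wild type and 149.1, 89.4, 92.9 and 148.9 in AGR3/8. Its wild type mean rests largely on replicate 1, and the difference of -1.81 (SE 0.50, adjusted p = 0.047) was -1.10 (adjusted p = 0.044) without that array. It was called in 3 of the 8 fits, and its other probe set was not called (-1.42, adjusted p = 0.100). JAZ2 was the single JAZ gene called higher (1.54, adjusted p = 0.034), although its groups overlapped, and it held the call in 2 of the 8 fits, not without wild type replicate 1 (0.085).

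LOX5, a lipoxygenase gene, fell from a range of 610.8 to 2534.0 in wild type to 282.5 to 419.6 in AGR3/8 (-1.50, SE 0.32, adjusted p = 0.017), and without wild type replicate 1 by 1.06 (adjusted p = 0.0088). It lost its call without AGR3/8 replicate 2 (0.059) or 3 (0.063), and it was the single called member among 19 probe sets for jasmonate synthesis. Of these 4 were lower without wild type replicate 1, 5 without wild type replicate 2, 2 without wild type replicate 4 and 0 without AGR3/8 replicate 2 or 3. Their median was -0.76, and -0.30 without wild type replicate 3. COI1B, for a jasmonate receptor, was higher: it read 812.5, 1275, 1149.7 and 1243 in wild type and 1621.5, 1640.4, 1496 and 1826 in AGR3/8 (0.57, SE 0.13, adjusted p = 0.023, called in 5 of the 8 fits). The 11 tested probe sets for ethylene synthesis and signalling gave 0 calls, beside 5.41% called over all probe sets.

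Among defence genes, 29 probe sets for chitinases and pathogenesis-related proteins gave 3 lower (10.3%) and 1 higher (3.45%). Over all probe sets the shares were 2.21% and 3.2%, and over those with a gene symbol 4.6% and 4.1%. Cht2, a chitinase gene, fell from 986, 1026, 3533 and 1988 to 416, 387, 418.0 and 366 at 1 probe set (-2.0, SE 0.39, adjusted p = 0.012). It fell by 1.8 at a second, and both were called in each of the 8 fits. Another, dimmer probe set differed by -1.22 and was not called (adjusted p = 0.060). OsrbohB, for an NADPH oxidase, read 948, 296, 336 and 335 in wild type and 105 to 183 in AGR3/8 (-1.46, SE 0.31, adjusted p = 0.017), and fell by 1.08 (adjusted p = 0.021) without wild type replicate 1, with the call lost without AGR3/8 replicate 2 (0.063) or 3 (0.058). OsWRKY24 fell by 0.73 (SE 0.13, adjusted p = 0.0084). The 21 tested diterpenoid phytoalexin probe sets gave 0 calls, beside 5.41% called over all probe sets, with a median of -0.55. That median was -1.18 without wild type replicate 1 and -0.13 without wild type replicate 3. OsPHT3, of the phosphate transporter list, fell from 662, 125, 200.3 and 121 to 54.3, 49.3, 43.2 and 66.8 (-1.74, SE 0.36, adjusted p = 0.015). Without wild type replicate 1 it fell by 1.22 (adjusted p = 0.0027), and without AGR3/8 replicate 3 it was not called (0.055).

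The called clock genes rose by small amounts. Pseudo-response regulators and GIGANTEA are parts of the plant circadian clock, and all plants were sampled at mid-day. Of 8 tested clock probe sets 5 were higher (62.5%, against 3.2% over all probe sets) and 0 lower, also without wild type replicate 1. Their median was 0.41 (0.35 without that array). OsPRR95 read 414, 649.7, 575 and 749.8 in wild type and 960.5, 848, 974.5 and 1050.3 in AGR3/8 (0.69, SE 0.13, adjusted p = 0.011), and held in each of the 8 fits. OsPRR1 rose by 0.62 (SE 0.12, adjusted p = 0.013), and both probe sets of OsPRR73 rose, by 0.49 and 0.39. GI read 2131.2 to 3056.8 in wild type and 3268.6 to 3679.5 in AGR3/8 (0.42, SE 0.09, adjusted p = 0.019). CCA1, a morning-phased clock gene, differed by 0.16 and was not called. Leaving out AGR3/8 replicate 3 left 1 clock call, and replicate 2 or 4 left 3.

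**Figure D3:**
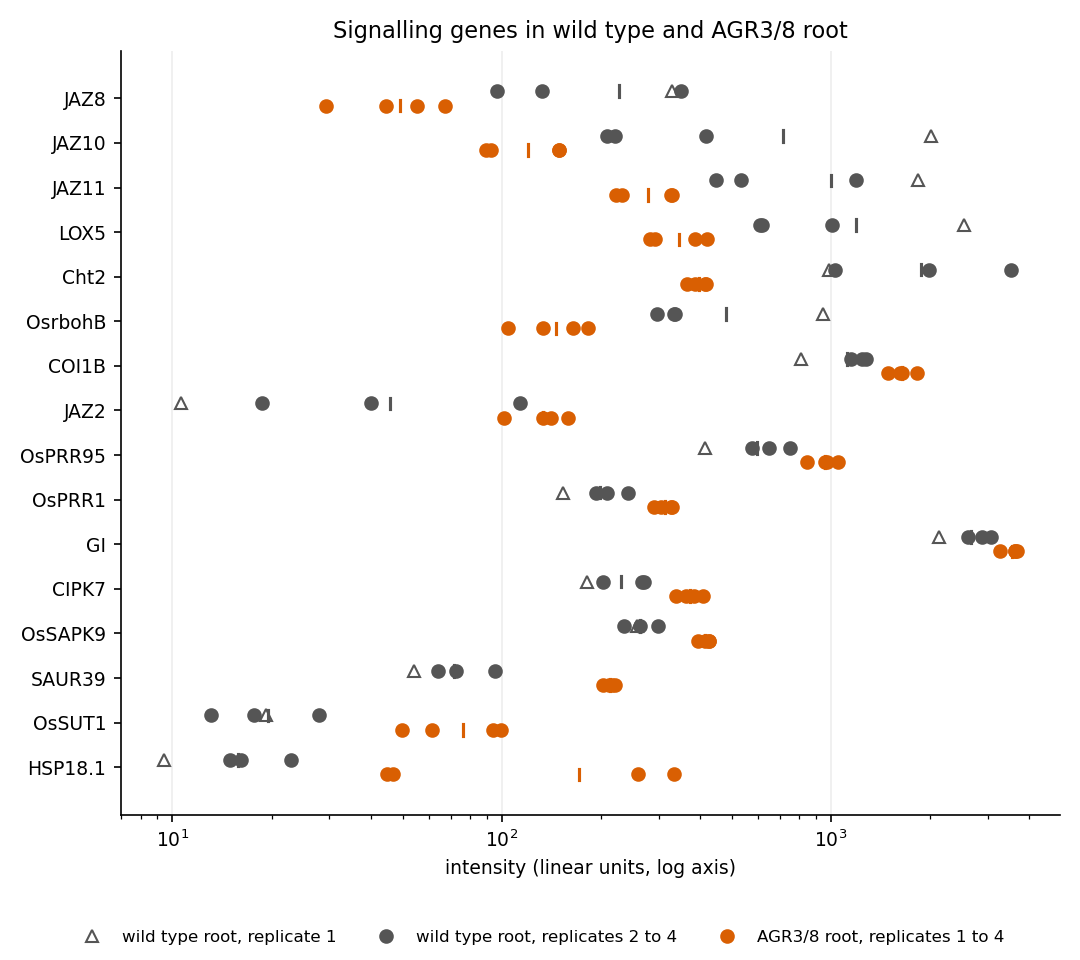
Intensity (log axis) in each wild type (grey) and AGR3/8 (orange) root array for 16 called genes of jasmonate, defence, clock, kinase, auxin, sucrose transport and heat shock lists, with the arithmetic mean of each group as a short bar. JAZ2 is the one gene here whose groups overlap, and the AGR3/8 arrays of HSP18.1 spread from 44.9 to 333.4.

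CIPK kinases are bound by calcineurin B-like calcium sensors. Of 32 tested CIPK probe sets 5 were higher (15.6%), of which CIPK10 alone gave 3, and 1 lower (3.1%). Over all probe sets 3.2% were higher and 2.21% lower. The number higher was 2 without AGR3/8 replicate 4 and 3 without AGR3/8 replicate 1, 2 or 3 or wild type replicate 3. The whole calcium signalling list gave 5 higher and 3 lower of 97 (5.16% and 3.09%), shares close to those over all probe sets. CIPK10 had 3 of 4 probe sets called, higher by 0.85, 0.80 and 0.94, and the fourth, at 0.74, was not (adjusted p = 0.056). At the first of these, CIPK10 read 1127.5, 1127.1, 852.0 and 1043 in wild type and 1945, 1683, 1654 and 2251 in AGR3/8. Of the 3 called, 1 lost its call without any one of the AGR3/8 arrays or wild type replicate 3 (0.065 to 0.085). Another lost it without AGR3/8 replicate 4 (0.055). CIPK7 rose from a range of 181.4 to 271.2 in wild type to 339.5 to 407.7 in AGR3/8 at 1 probe set (0.67, SE 0.11, adjusted p = 0.0057), while its second, which read 127.8 in wild type replicate 1 and 576.0 to 778.4 in the other wild type arrays, was not called (adjusted p = 0.22). OsSAPK9, for a kinase of the SnRK2 family that acts in abscisic acid signalling, read 258, 262, 236 and 298 in wild type and 396, 414, 426 and 427.5 in AGR3/8 (0.63, SE 0.13, adjusted p = 0.013). Of 95 abscisic acid and dehydration probe sets 6 were higher (6.32%) and 2 lower (2.11%, near the share over all probe sets). The number higher was 2 without wild type replicate 1 or 3 or AGR3/8 replicate 2, 3 or 4, and 3 without AGR3/8 replicate 1. Of 65 auxin probe sets 2 were higher and 2 lower (3.08% each), shares close to those over all probe sets. The higher were SAUR39 and the efflux carrier gene OsPIN4 (0.65, adjusted p = 0.014, and 0.052 without AGR3/8 replicate 3). Without wild type replicate 1 or any one of the AGR3/8 arrays, 0 auxin probe sets were lower.

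Heat shock proteins gave 9 higher (16.1%, against 3.2% over all probe sets) and 0 lower of 56 tested, and 5 higher without wild type replicate 1. The largest differences were uneven among the AGR3/8 arrays. HSP18.1 read 9.4 to 22.9 in wild type and 46.8, 260.2, 333.4 and 44.9 in AGR3/8 (2.14, SE 0.47, adjusted p = 0.020), and HSP17.4 read 25.6 to 41.4 and 74.7, 272.0, 346.9 and 49.0 (1.66, SE 0.39, adjusted p = 0.026). Replicates 2 and 3 were the high arrays for both genes, as for LOC4331398. Both calls were lost without either of them (adjusted p from 0.064 to 0.084), that of HSP17.4 also without wild type replicate 3 (0.054). A second probe set of HSP18.1 was called as well. It lost its call without AGR3/8 replicate 2 or 3 (0.113 each) or wild type replicate 1 (0.058), 3 (0.0715) or 4 (0.057). The number of heat shock calls fell to 1 without AGR3/8 replicate 3 and to 2 without AGR3/8 replicate 2 or wild type replicate 3. Small heat shock genes have near-identical copies, and a probe set can take signal from several of them. Of 13 MYB factor probe sets 4 were higher (30.8%, beside the same 3.2%), among them MYBAS1 (0.87, adjusted p = 0.022). None were lower, and 0 were called without AGR3/8 replicate 3. The blue light receptor gene Osnph1a rose from a range of 154.7 to 298.0 in wild type to 431.8 to 462.0 in AGR3/8 (0.98, SE 0.15, adjusted p = 0.0031), and OsbZIP37 by 0.97 (adjusted p = 0.021).

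**Figure D4:**
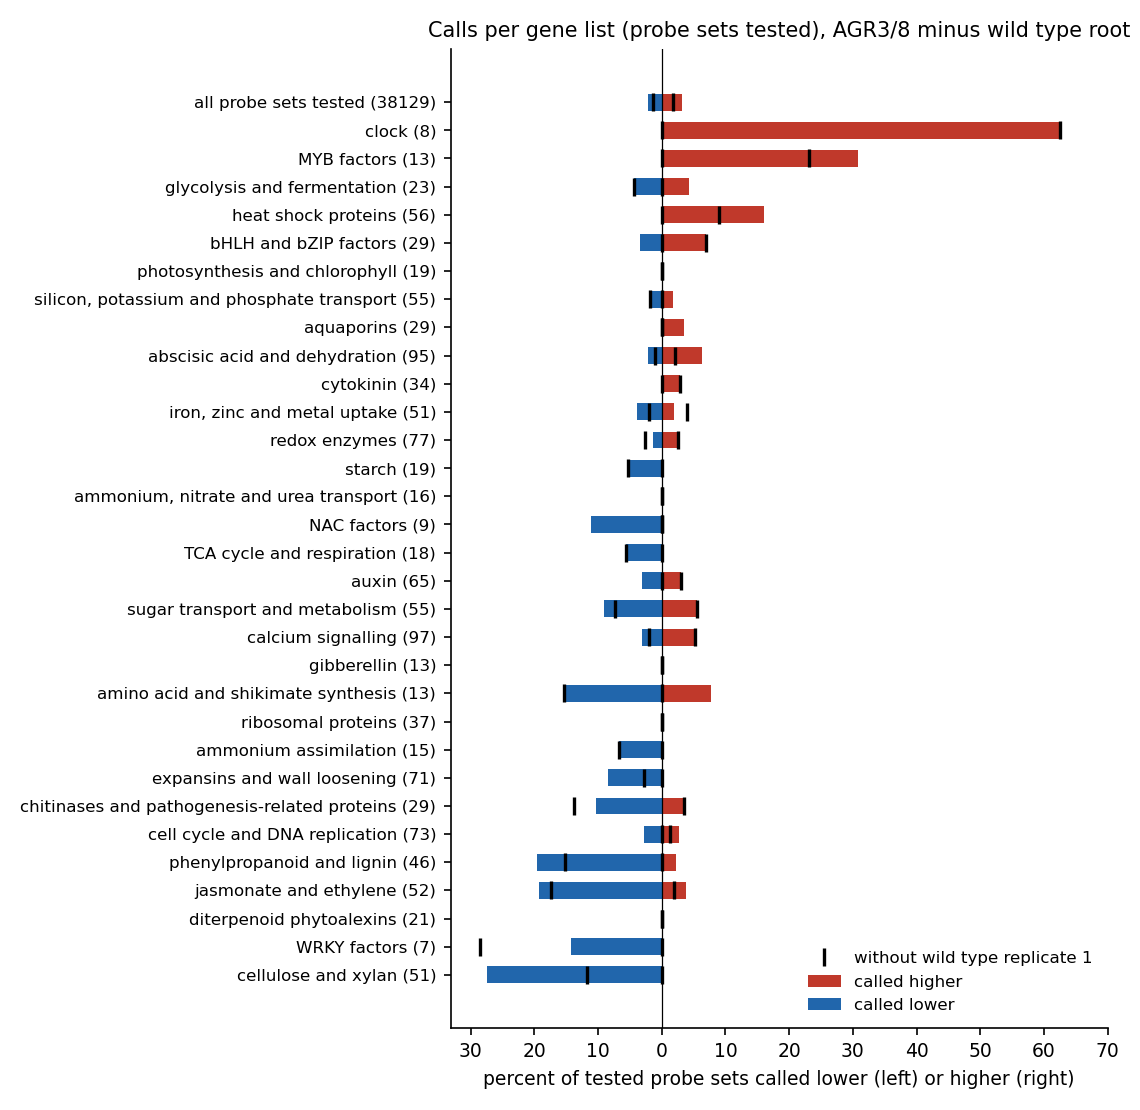
Percent of tested probe sets called higher (red, right) and lower (blue, left) in AGR3/8 against wild type root for each gene list, with the number tested in brackets and black ticks for the fit without wild type replicate 1, in order of the list's median difference. The cellulose and xylan list reaches 27.5% lower and the clock list of 8 probe sets 62.5% higher, beside 2.21% and 3.2% over all probe sets. Over probe sets with a gene symbol, from which the lists are drawn, the shares are 4.6% and 4.1%.

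AGR3/8 was also set against the mean of AGR1/7 and AGR1/8 roots, which carry the same construct. There 443 probe sets were called (1.16%), 257 higher (0.674%) and 186 lower (0.488%). Both comparisons share the AGR3/8 arrays, and 157 probe sets were called in both with the same sign. Os.20851.1.A1_at, matched to no gene, read 0.2 to 2.2 in wild type, 0.6 to 1.0 in AGR1/7 and 0.4 to 1.0 in AGR1/8 roots. In AGR3/8 roots it read 351, 263, 259.9 and 398, a difference of 4.30 (SE 0.13, adjusted p = 6.94e-13) from the other lines and 4.28 from wild type. Os.20851.1.A1_x_at gave 4.13 and 4.03. In shoot they rose as well, by 4.96 and 4.55. LOC4344267 on chromosome 7 had both probe sets lower than the other lines, at -2.0 and -2.35, with 188.9 to 214.9 in AGR3/8 at the second against 227.8 to 909.0 in wild type and 908.5 to 1284.0 in the other lines. LOC4348069 on chromosome 10 was lower than the mean of the other lines, at -2.95 (adjusted p = 8.22e-07). It read 1341 to 1868.3 in AGR1/8, against 15.4 to 33.2 in AGR1/7, 2.6 to 29.5 in AGR3/8 and 35.5 to 79.5 in wild type.

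Of the genes described above, JAZ8 was lower in AGR3/8 than in the other lines, at -1.34 (adjusted p = 0.025), and HSP18.1 and HSP17.4 were higher by 2.1 and 1.81 (adjusted p = 0.015 and 0.012). LOC4343487 was lower, at -1.60 (adjusted p = 0.027). The differences of the other lines from wild type are given beside those of AGR3/8, with the wild type arrays shared by all. GLN1-1 was at -0.84 in AGR1/7 and -0.51 in AGR1/8, and CESA1 at -0.97 and -0.62. 4CL-3 was at -1.01 and -0.62, OsSUT1 at 0.88 and 1.33, SAUR39 at 1.67 and 0.95, and OsPRR95 at 0.73 and 0.72. None of these 6 genes passed the test of AGR3/8 against the other lines, with adjusted p from 0.19 for 4CL-3 to 0.95 for OsPRR95.

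**Figure D5:**
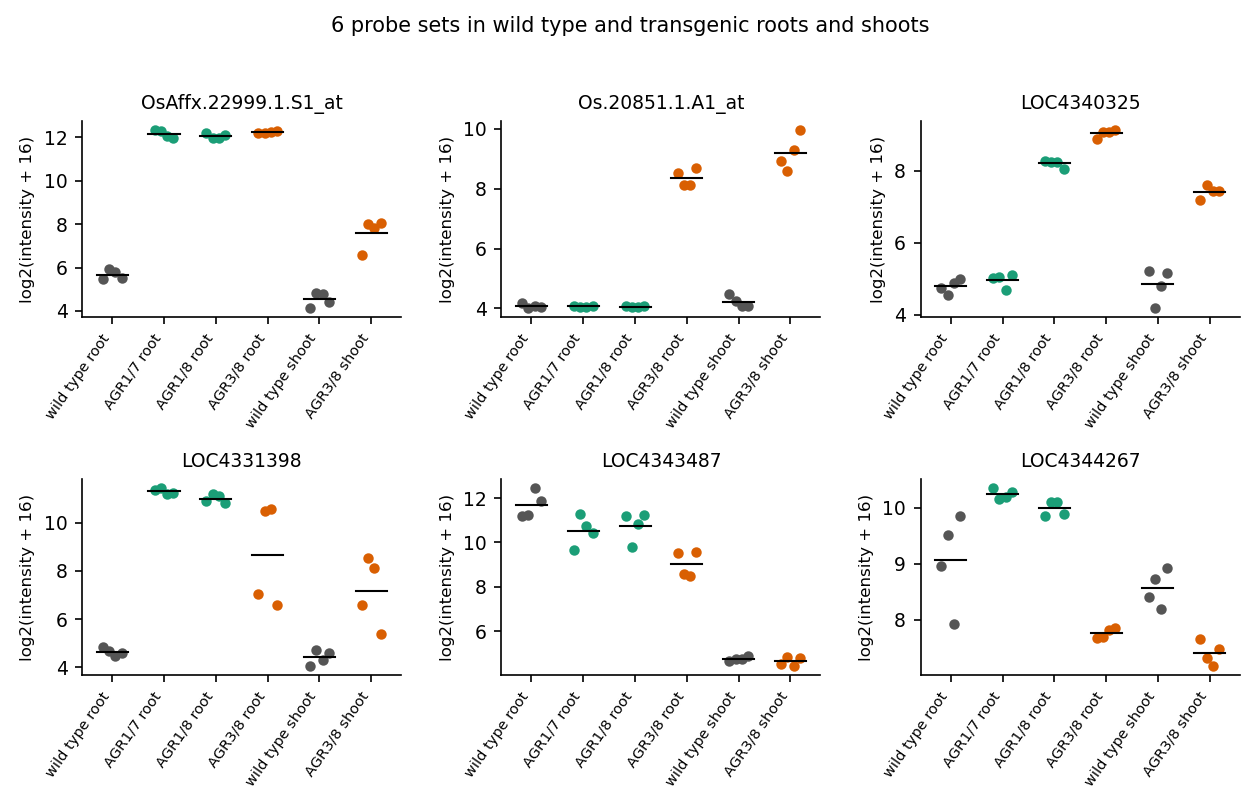
log2(intensity + 16) in each array (points, with the group mean as a line) for 6 probe sets in wild type (grey), AGR1/7 and AGR1/8 (green) and AGR3/8 (orange). OsAffx.22999.1.S1_at is high in the roots of all 3 lines, Os.20851.1.A1_at in AGR3/8 alone among the groups drawn, and LOC4331398 spreads widely among AGR3/8 arrays in root and shoot.

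The difference between AGR3/8 and wild type, taken with its sign, differed between root and shoot at 857 probe sets (2.25%). It was higher in root at 527 (1.38%) and lower at 330 (0.865%), and 482 of the 2038 root calls tested there were among them. Both fits use the same root arrays. Few calls were made in shoot itself: of the 38129 probe sets tested in root, 159 were called higher and 144 lower in AGR3/8 shoot against wild type shoot. Of the root calls, 51 were among these with the same sign. OsSUT1 read 237.5 to 290.0 in wild type shoot and 215.9 to 275.2 in AGR3/8 shoot, and its root difference exceeded that in shoot by 1.39 (adjusted p = 0.0044). GLN1-1 differed by -0.16 in shoot, and root minus shoot was -0.82 (adjusted p = 0.033). SAUR39 differed by 0.17 in shoot, with root minus shoot at 1.23 (adjusted p = 0.025). LAC3 differed by 0.28 in shoot, with root minus shoot at -1.39 (adjusted p = 0.0061). The test of the tissues did not pass for CESA1 (adjusted p = 0.069), JAZ8 (0.24) or OsPRR95 (0.92), and OsPRR95 differed by 0.63 in shoot.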

How the data were processed

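Per the labels, biotin-labelled total RNA was hybridised to an Affymetrix rice array of 1 colour. Intensity values were deposited on a linear scale, and their mean after trimming was 99.99 on every array, so the authors had scaled each array to a common target. This was done with software not given in the sources used here. Control probe sets (187 of 57381) and the dimmest 33.3% by mean log2 intensity over the 16 root arrays were left out, which left 38129. Of all probe sets 22436 matched 1 gene, 95 several and 34663 none, in the platform annotation. Symbols were updated through the rice gene table of assembly ASM3414082v1. Probe sets ending in _s_at or _x_at can take signal from several transcripts.

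Values were taken as log2(intensity + 16) and fitted with limma 3.58.1 in R 4.3.3 (lmFit, eBayes with an intensity trend), over the 4 root groups of 4 arrays. All 32 arrays entered the fit of root against shoot. Adjustment of p-values was by Benjamini-Hochberg over all probe sets of a fit. Same-numbered AGR3/8 and wild type root arrays correlated at 0.184, 0.079, 0.092 and -0.062 in their deviations from the group means, so the numbers were not treated as pairs. The text names a part of the probe sets chosen by this rule: the 10 higher and 10 lower with the largest difference among those called and not overlapping, 12 each among those with a symbol, up to 4 called members per direction of each gene list or else its 2 brightest, and 6 each with the largest difference from the other lines. The probe set families (JAZ, CESA, CIPK and the like), the remaining probe sets of named genes, the root markers, and members named because they were single calls or relatives of a called gene were added after values were seen. The members and lists were chosen with earlier results of these data known. The number of arrays limits the precision.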

Additional observations from a re-analysis of the deposited data

Results flagged for a closer look

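For 72 probe sets described in the text, single arrays far from the other 3 of their group, effects that differed between root and shoot, and effects that differed between AGR3/8 and the other lines were looked for. Among 144 groups of 4 root arrays, 4 had an array far from the rest by Dixon's test on the log2 scale, where chance gives about 1 in 20 groups. Wild type replicate 1 read 186.6 for MCM3, a subunit of the replicative helicase, against 69.1 to 82.6 in the other wild type arrays, and 947.6 for OsrbohB. AGR3/8 replicate 1 read 3268.6 for GI and AGR3/8 replicate 4 read 949.9 for GLN1-1, both within a narrow group.

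The AGR3/8 difference, taken with its sign, was higher in root than in shoot, by limma's adjusted p under 0.05 for root minus shoot, for OsAffx.22999.1.S1_at (3.49), OsAffx.3719.1.S1_at (2.64), Os.6042.1.S1_at (2.35), Os.21788.1.S1_at (1.95), LOC4340325 (1.67), OsAffx.21743.1.S1_s_at (1.40), OsSUT1 (1.39), SAUR39 (1.23), COPT2 (1.17), 2 probe sets of CIPK10 (0.80 and 0.75) and Lsi1 (0.59). It was lower in root than in shoot for LOC4325264 (-3.19), LOC4343487 (-2.53), OsAffx.32059.1.S1_at (-2.14), OsAffx.7566.1.S1_s_at (-1.99), OsAffx.6501.1.S1_x_at (-1.98), LOC4325938 (-1.96), OsrbohB (-1.69), OsPHT3 (-1.60), LAC3 (-1.39) and GLN1-1 (-0.82).

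AGR3/8 roots were higher than the mean of the other 2 lines for Os.20851.1.A1_at (4.30), Os.20851.1.A1_x_at (4.13), LOC4340325 (2.45), Os.21788.1.S1_at (2.24), HSP18.1 (2.1), HSP17.4 (1.81) and OsAffx.21743.1.S1_s_at (1.18). They were lower for LOC4348069 (-2.95), LOC4331398 (-2.48), LOC4344267 at both probe sets (-2.35 and -2.0), OsAffx.7566.1.S1_s_at (-1.72), LOC4343487 (-1.60), JAZ8 (-1.34), the chitinase gene Cht11 (-0.98) and OsWRKY24 (-0.66).

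Outside the probe sets tested, 1 of the 64 reporter probe sets gave a signal in AGR3/8 roots, with a lowest array of 5504.5, and in wild type shoot replicate 4 it read 99.6, against 0.5 to 1.7 in the other 3 wild type shoots.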

How the results depend on the processing

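The number of probe sets called in AGR3/8 against wild type root, 2064, stayed within 1.5 times under pseudocounts of 1 (1957) and 64 (2078), a stricter filter on dim probe sets (2558), quantile normalization (2212), no variance trend (1633), and both centrings (1807 and 2106). The second centring, on the probe sets tested, was added after seeing the data and gave 1242 higher and 864 lower. With no filter on dim probe sets it was 1279 (789 higher, 490 lower). Array weights, which gave wild type replicate 1 a weight of 0.194, made it 3261, with 1537 lower. With only the 8 arrays of both groups it was 634 (312 higher, 322 lower). Leaving out each array in turn gave 428 to 3545 calls, 278 to 2170 higher and 150 to 1375 lower. Of the list members 117 were called, and 70, 191 and 49 under those 3 settings, with 24 to 188 when an array was left out. Of the 119 named probe sets followed, 117 were called, 45 with the 8 arrays only, and 42 to 113 when an array was left out. No named probe set changed sign under any of these settings.

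Against the other lines 443 were called, 2369 with array weights, and 209 (without AGR3/8 replicate 3) to 631 when an array was left out, with 235 and 280 without AGR3/8 replicates 2 and 4. Root against shoot gave 857, 508 with no filter, and 292 (without AGR3/8 root replicate 3) to 1733 (without wild type root replicate 2). It was 461 and 567 without wild type root replicates 1 and 3, 402 and 491 without AGR3/8 root replicates 2 and 4, 424 and 529 without wild type shoot replicates 2 and 3, and 1370, 418 and 445 without AGR3/8 shoot replicates 1, 2 and 3. With the replicate block 1971 probe sets were called in root, 1143 higher and 828 lower. That block rests on the replicate number alone. Not every AGR3/8 array correlated best with the wild type array of its own number, which cannot show whether same-numbered arrays shared a batch. The cause of these changes was not tested. With 4 arrays a group, probe sets near background are the least certain.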

Other observations

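Calls were spread over the genome. Of the tested genes of each of the 12 chromosomes, 5.82% to 9.36% had a call, chromosome 8 the most. For AGR3/8 against the other lines the share ran from 0.481% on chromosome 3 to 2.87% on chromosome 11. A single run of neighbouring genes differed by at least 1 log2, LOC4329819 (1.06), LOC4329821 (-1.11) and LOC4329826 (-1.98) on chromosome 2.

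Some gene groups held few or no calls. Of 37 ribosomal protein probe sets 0 were called by limma, beside 5.41% called over all probe sets. In 13 of them all AGR3/8 arrays lay below all wild type arrays, and the median was -0.19 (-0.13 without wild type replicate 1). Such a lack of overlap held for 6.89% of all probe sets and 367 of the 2897 with a gene symbol. Of 8 probe sets for the MCM helicase, which unwinds DNA at replication, 6 lay below wild type without overlap, beside those same shares. MCM3 was the 1 called (-1.25, adjusted p = 0.033, called in 2 of the 8 fits that left out an array, and at 0.080 without wild type replicate 1). Of 51 metal uptake probe sets 1 was higher (1.96%) and 2 lower (3.92%), near the 3.2% and 2.21% over all probe sets. The copper transporter gene COPT2, called higher as given above, was not on this list. HMA4, for a copper-transporting ATPase, was higher by 0.62 (adjusted p = 0.028). Its call was lost without AGR3/8 replicate 2 (0.080), 3 (0.097) or 4 (0.053) or wild type replicate 3 (0.050). Among the lower was NRAMP3, at -0.55 (adjusted p = 0.011). The cytokinin response regulator gene ORR4 was higher by 0.52 (adjusted p = 0.015), and not called without AGR3/8 replicate 3 (0.057). Of 34 cytokinin probe sets 1 was higher (2.94%) and 0 lower, again near the shares over all probe sets.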
